A study of Homo sapiens with 14 samples.

Results

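Cholesterol and fatty acids are built from the same starting unit, acetyl-CoA, and 30 genes of these routes were followed in KYSE510, an esophageal squamous cell carcinoma line, after knockdown of EZH2 or LAT1. The genes were a fixed list of symbols, looked up among 63677 gene entries in each of 2 expression tables and tested in a table where their mean over its 6 libraries was at least 1 FPKM (a read or fragment count divided by the length of the gene and the size of the library). In the table with EZH2 knockdown 28 of the 30 were tested, among 11585 genes in all. In the table with LAT1 knockdown all 30 were tested, among 11678 genes. The list held 7 enzymes of the mevalonate route, 11 enzymes that turn its product into sterols, 7 regulators or sterol carriers and 5 enzymes of fatty acid synthesis.

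Cells were transfected with a small interfering RNA (siRNA) by lipofection and RNA was taken 48 h later. The EZH2 series held siEZH2_1, siEZH2_2 and the control siRNA siNC, and the LAT1 series held siLAT1_2, siLAT1_3 and a separate siNC, with 2 libraries in each of the 6 groups. EZH2 is the histone methyltransferase of the Polycomb system, and LAT1, encoded by SLC7A5, imports methionine, leucine and other large neutral amino acids. The comparisons ask how loss of the methyltransferase or of the importer changes the RNA of these genes. The model is a single cancer cell line, and separate cultures are not stated for the 2 libraries of a group. Each p-value therefore speaks to how far these libraries scatter, and that scatter may be technical.

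In the mevalonate route acetyl-CoA is condensed, reduced to mevalonate and phosphorylated into isoprene units, which are joined into squalene, closed into lanosterol and trimmed to cholesterol. Fatty acid synthesis starts from the same acetyl-CoA through malonyl-CoA. Both sets of genes are switched on by the sterol regulatory element binding proteins (SREBPs), which INSIG proteins hold in the endoplasmic reticulum with their escort SCAP while sterol is plentiful and which are carried to the Golgi and cleaved when it runs low. At promoters the SREBPs act beside the factors NF-Y and Sp1. Tumours of squamous origin, like most growing cells, run both routes.

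The promoters of 6 of the genes are shown. Of these genes, 5 were among those with the largest changes described here. SREBF2 was added as it held the sole match to the sterol regulatory element pattern searched. The windows run from 250 bases before to 50 bases after the RefSeq start in GRCh38.p14. Those of HMGCS1 (chr5:43313363-43313662 on the minus strand), INSIG1 (chr7:155297628-155297927 on the plus strand), STARD4 (chr5:111512486-111512785 on the minus strand), C12orf49, listed by RefSeq as SPRING1 (chr12:116738020-116738319 on the minus strand), SREBF2 (chr22:41832855-41833154 on the plus strand) and SCD (chr10:100346983-100347282 on the plus strand) are given in the direction of transcription. Their gene identifiers in the tables are ENSG00000112972 (HMGCS1), ENSG00000186480 (INSIG1), ENSG00000164211 (STARD4), ENSG00000111412 (C12orf49), ENSG00000198911 (SREBF2) and ENSG00000099194 (SCD). Capitals mark matches on either strand to CCAAT (bound by NF-Y), GGGCGG (bound by Sp1), CACGTG (an E-box) or TCACNCCAC (a sterol regulatory element), and neighbouring GGGCGG matches overlap in INSIG1 and SREBF2.
HMGCS1: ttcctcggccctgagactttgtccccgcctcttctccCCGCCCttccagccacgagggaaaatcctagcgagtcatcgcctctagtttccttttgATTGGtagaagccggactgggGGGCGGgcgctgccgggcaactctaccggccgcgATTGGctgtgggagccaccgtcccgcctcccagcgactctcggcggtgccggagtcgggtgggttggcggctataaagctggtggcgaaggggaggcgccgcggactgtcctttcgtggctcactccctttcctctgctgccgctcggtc
INSIG1: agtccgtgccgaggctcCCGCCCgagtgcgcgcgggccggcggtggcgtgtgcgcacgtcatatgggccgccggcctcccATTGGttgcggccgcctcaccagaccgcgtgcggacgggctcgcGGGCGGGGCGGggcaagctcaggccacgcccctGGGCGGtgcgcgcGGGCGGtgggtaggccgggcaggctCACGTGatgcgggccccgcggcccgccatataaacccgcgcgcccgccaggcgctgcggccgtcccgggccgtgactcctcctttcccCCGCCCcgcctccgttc
STARD4: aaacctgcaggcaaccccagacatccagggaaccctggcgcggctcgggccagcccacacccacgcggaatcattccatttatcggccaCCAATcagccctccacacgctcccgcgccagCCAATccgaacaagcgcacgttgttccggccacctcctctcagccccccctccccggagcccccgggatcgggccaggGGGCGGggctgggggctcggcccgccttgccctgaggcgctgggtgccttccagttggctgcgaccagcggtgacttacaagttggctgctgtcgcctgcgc
C12orf49: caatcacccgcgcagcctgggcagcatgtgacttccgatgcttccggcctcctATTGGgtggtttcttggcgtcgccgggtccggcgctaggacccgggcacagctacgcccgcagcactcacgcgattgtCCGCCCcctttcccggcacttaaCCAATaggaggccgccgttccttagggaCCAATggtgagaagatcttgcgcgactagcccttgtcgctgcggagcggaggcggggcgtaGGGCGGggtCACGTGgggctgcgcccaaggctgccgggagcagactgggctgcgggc
SREBF2: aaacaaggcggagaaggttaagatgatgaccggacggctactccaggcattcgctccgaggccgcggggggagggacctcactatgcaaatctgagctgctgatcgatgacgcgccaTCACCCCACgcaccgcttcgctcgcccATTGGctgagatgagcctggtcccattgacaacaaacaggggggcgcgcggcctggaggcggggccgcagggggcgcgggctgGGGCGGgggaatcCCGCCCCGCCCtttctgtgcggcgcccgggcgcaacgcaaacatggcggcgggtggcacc
SCD: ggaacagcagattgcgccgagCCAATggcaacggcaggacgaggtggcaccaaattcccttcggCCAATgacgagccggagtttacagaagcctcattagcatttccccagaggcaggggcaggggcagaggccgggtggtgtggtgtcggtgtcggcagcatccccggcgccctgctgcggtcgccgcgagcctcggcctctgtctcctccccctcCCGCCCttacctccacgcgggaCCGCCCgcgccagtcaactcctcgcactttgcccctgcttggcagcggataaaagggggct

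A promoter was at hand for 26 of the 30 genes, all but ACAT2, FASN, FDFT1 and SQLE. CCAAT was found in 21 of the 26 (80.8%), against 44.1% of the genes tested in the LAT1 table and 39.7% of all gene symbols with a promoter. GGGCGG stood in 25 of the 26 (96.2%), against 78.7% of the tested genes and 48.3% of all symbols. CACGTG stood in 5 (19.2%), against 12.8% and 8.77% in the same 2 backgrounds. TCACNCCAC was found in SREBF2 alone (3.85%), against 1.37% and 1.39%. Other forms of the sterol regulatory element were not searched, so the other genes cannot be said to lack it. Of these 6 genes, HMGCS1, C12orf49 and SCD overlap no other annotated gene. INSIG1 overlaps INSIG1-DT among others, STARD4 overlaps STARD4-AS1, and SREBF2 overlaps SREBF2-AS1 and MIR33A. Whether reads were counted by strand is not stated, so reads of such overlapping genes cannot be told apart. The same holds for MVK (with MMAB), IDI1 (with WDR37), FDPS (with RUSC1-AS1), TMEM97 (with IFT20) and ACAT2 (with TCP1 and SOD2). It also holds for SREBF1, CYP51A1, DHCR7, LSS, FDFT1, SCAP, ACLY, ACACA, FASN and ELOVL6, which overlap other annotated genes. The motif matches describe letters in a window and do not show that a factor binds there.

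Libraries were alike in depth within a series. Steps between low FPKM values gave estimates of 20960000 to 26860000 counted reads or fragments for libraries of the EZH2 series and 12620000 to 16340000 for those of the LAT1 series, with 79.6% to 87.2% of the values whole within 0.12 reads. Knockdown was checked first. EZH2 RNA stood at 6.63 and 7.24 FPKM with siEZH2_1 and at 6.40 and 6.04 FPKM with siEZH2_2, against 17.1 and 17.1 FPKM with siNC. SLC7A5 RNA stood at 86.2 and 80.4 FPKM with siLAT1_2 and at 107 and 107 FPKM with siLAT1_3, against 407 and 413 FPKM with siNC. Each target was lower in every library meant to deplete it. SLC7A5 was also lower in the EZH2 series, at 184 and 193 FPKM with siEZH2_1 and at 596 and 591 FPKM with siEZH2_2, against 733 and 777 FPKM with siNC. All 6 squamous markers were expressed, led by KRT5 at a mean of 490 FPKM in the EZH2 table and 468 FPKM in the LAT1 table. Fibroblast, immune, endothelial, adipocyte and hepatocyte markers each stood at a mean of 2.0 FPKM or less. In the EZH2 series the summed squamous markers were at 547 to 550 FPKM with siEZH2_1 and 524 to 572 FPKM with siEZH2_2, against 575 to 618 FPKM with siNC, and 2 of the 6 were called lower with each siRNA, where 11.4% (siEZH2_1) and 10.9% (siEZH2_2) of all tested genes were. In the LAT1 series they were at 532 to 546 FPKM with siLAT1_2 and 599 to 612 FPKM with siLAT1_3, against 647 to 654 FPKM with siNC, with 5 of the 6 called lower with siLAT1_2 and 2 with siLAT1_3, where 13.9% and 13.6% of all tested genes were. The part of these markers in the results was not tested.

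With the mean of both EZH2 siRNAs, genes of the mevalonate route were mostly called higher and genes of fatty acid synthesis were lower or not called. Of the 6 mevalonate genes tested, 3 were higher with siEZH2_1, and 2 were higher and 1 lower with siEZH2_2. Averaged over both siRNAs, 15 of 28 genes were called at an adjusted p under 0.05 (limma on log2(FPKM + 1), Benjamini-Hochberg over all genes tested), 8 higher and 7 lower, where 30.0% of all tested genes were called (17.0% higher and 13.0% lower). The median change of the 28 genes was -0.005 on the log2 scale, beside 0.026 over all genes tested. With siEZH2_1 12 of 28 were called, 8 higher and 4 lower, against a background of 27.2% (15.9% higher and 11.4% lower). With siEZH2_2 8 of 28 were called, 3 higher and 5 lower, against a background of 24.8% (13.9% higher and 10.9% lower), near the genes' own share of 28.6%. Of the 28 genes 3 were higher with both siRNAs (background 8.93%), none was lower with both (background 4.05%) and 1 went in opposite directions (background 0.570%). With 28 genes, the counts higher with both and lower with both are close to their backgrounds. The gene that went in opposite directions, INSIG1, was among the 8 called higher with the mean, at 0.26. Changes on this scale understate those of low genes, and in RNA from many cells fewer cells with a transcript and less of it per cell cannot be told apart.

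**Figure D1:**
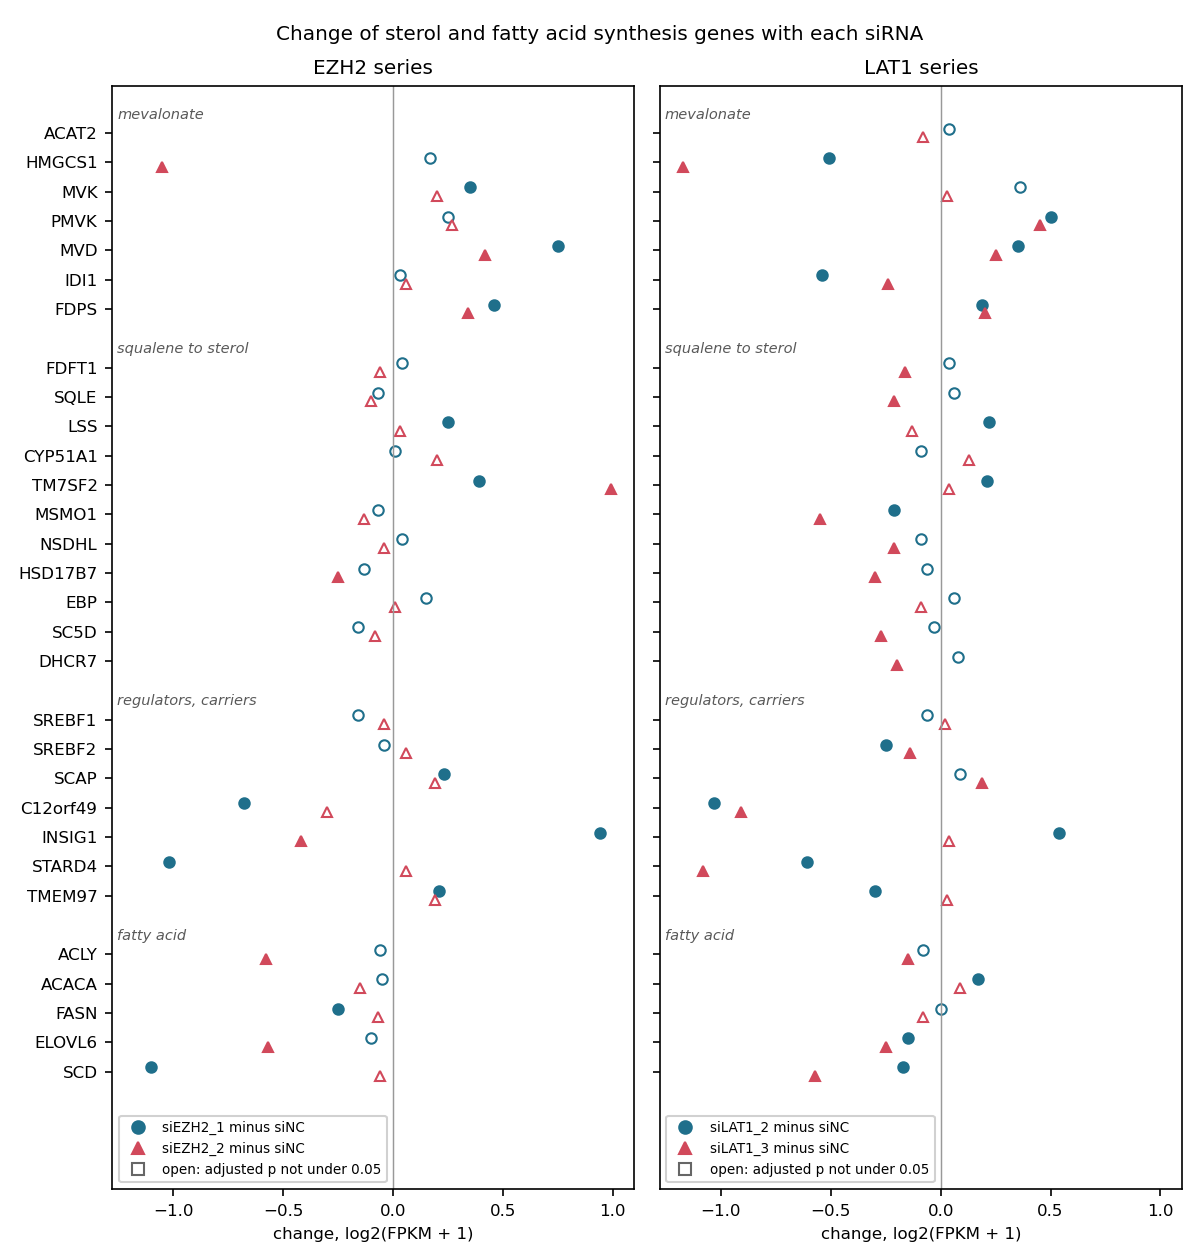
Change of each gene in log2(FPKM + 1) against siNC, with siEZH2_1 (circles) and siEZH2_2 (triangles) at left and siLAT1_2 (circles) and siLAT1_3 (triangles) at right; filled symbols have an adjusted p under 0.05, and ACAT2 and DHCR7 were not tested in the EZH2 series. HMGCS1 lies far to the left with siEZH2_2, at -1.05, and with siLAT1_3, at -1.17, while FDPS and MVD lie to the right of 0 with all 4 siRNAs.

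The 3 genes higher with both EZH2 siRNAs were enzymes. MVD, which decarboxylates mevalonate diphosphate into the first isoprene unit, stood at 15.9 and 16.1 FPKM with siEZH2_1 and 13.4 and 11.8 FPKM with siEZH2_2, against 8.41 and 9.89 FPKM with siNC. All 4 knockdown libraries lay above both siNC libraries, and MVD rose by 0.75 ± 0.09 with siEZH2_1 and 0.42 ± 0.09 with siEZH2_2 (log2 change ± SE, limma adjusted p = 0.00246 and 0.0189). FDPS, which joins isoprene units into farnesyl diphosphate, stood at 20.2 and 21.1 FPKM with siEZH2_1 and 19.3 and 18.6 FPKM with siEZH2_2, against 14.4 and 15.1 FPKM with siNC. Its groups did not overlap either, and it rose by 0.46 ± 0.06 and 0.34 ± 0.06 (limma adjusted p = 0.0027 and 0.00801). TM7SF2, a sterol reductase that acts after lanosterol, stood at 10.7 and 10.8 FPKM with siEZH2_1 and 17.8 and 15.9 FPKM with siEZH2_2, against 7.03 and 8.96 FPKM with siNC. It rose by 0.39 ± 0.11 with siEZH2_1 and by 0.99 ± 0.11 with siEZH2_2 (limma adjusted p = 0.0423 and 0.00163), with every knockdown library above siNC. The siEZH2_2 call of MVD ended without siEZH2_2 replicate 1 (limma adjusted p = 0.0895) or siNC replicate 1 (0.0903), and that of FDPS without siNC replicate 1 (0.054). The siEZH2_1 call of TM7SF2 ended without siEZH2_1 replicate 1 (0.112), siEZH2_1 replicate 2 (0.157) or siNC replicate 1 (0.168).

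Of the 6 mevalonate genes tested in the EZH2 series, 4 were called higher, 1 lower and 1 not called with the mean of both siRNAs. Their median change was 0.27. Over all tested genes 17.0% were called higher and 13.0% lower. MVK and PMVK, the kinases that act in turn on mevalonate, rose by 0.27 ± 0.08 and 0.26 ± 0.08 with the mean (limma adjusted p = 0.0405 and 0.0432). MVK stood at 9.88 and 10.4 FPKM with siEZH2_1 and 9.64 and 8.46 FPKM with siEZH2_2, against 7.24 and 8.30 FPKM with siNC. The lowest MVK knockdown library was thus close to the highest siNC library. Without siNC replicate 1 the mean call ended for MVK (limma adjusted p = 0.258) and for PMVK (0.191), and any of 4 libraries for MVK and 5 for PMVK ended it when left out. IDI1, which interconverts the isoprene units, was the gene not called, with a mean change of 0.05 and a 95% interval of -0.07 to 0.16.

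HMGCS1, which makes HMG-CoA in the mevalonate route, behaved differently with the 2 EZH2 siRNAs. It stood at 15.1 and 13.6 FPKM with siEZH2_2, against 36.9 and 32.5 FPKM with siEZH2_1 and 32.0 and 29.5 FPKM with siNC. The siEZH2_2 libraries were at 46.6% of the siNC mean, and the siEZH2_1 libraries at 113%. HMGCS1 fell by 1.05 ± 0.08 on the log2 scale with siEZH2_2 (limma adjusted p = 0.000532), while its change with siEZH2_1 was 0.17 with a 95% interval of -0.03 to 0.37. The difference between siEZH2_2 and siEZH2_1 was -1.22 ± 0.08 (limma adjusted p = 0.000494).

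The 10 tested enzymes from squalene to sterol moved little with EZH2 knockdown. With the mean of both siRNAs 1 was higher (TM7SF2), 1 lower and 8 not called, and their median change was -0.005. The lower one was HSD17B7, a keto reductase of the C4 demethylation steps, at 4.62 and 4.52 FPKM with siEZH2_1 and 4.15 and 4.07 FPKM with siEZH2_2, against 4.97 and 5.22 FPKM with siNC. All 4 knockdown libraries lay below siNC, yet the fall of 0.19 ± 0.06 (limma adjusted p = 0.0476) was lost on leaving out any of the 6 libraries, with adjusted p-values up to 0.22. Squalene synthase FDFT1 gave -0.01 (95% interval -0.12 to 0.10) and squalene epoxidase SQLE by -0.08 (-0.20 to 0.03). LSS, which closes the squalene epoxide into lanosterol, rose by 0.25 ± 0.06 with siEZH2_1 (limma adjusted p = 0.03) and its change with siEZH2_2 was 0.03. Leaving out siEZH2_1 replicate 1, siEZH2_1 replicate 2 or siNC replicate 1 ended the LSS call (adjusted p = 0.0898, 0.159 and 0.174).

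Among the 7 regulators and carriers in the EZH2 series, INSIG1 went in opposite directions with the 2 siRNAs. INSIG1 RNA stood at 18.7 and 17.6 FPKM with siEZH2_2 and at 50.5 and 45.9 FPKM with siEZH2_1, against 24.9 and 24.2 FPKM with siNC. The 3 groups did not overlap, with siEZH2_1 the highest and siEZH2_2 the lowest. INSIG1 rose by 0.94 ± 0.07 with siEZH2_1 (limma adjusted p = 0.000373) and fell by 0.42 ± 0.07 with siEZH2_2 (0.00605). The difference between the siRNAs was -1.36 ± 0.07 (limma adjusted p = 0.000169), the largest in size among the 28 genes.

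STARD4, a cytosolic carrier of cholesterol, stood at 13.8 and 15.4 FPKM with siEZH2_2 and at 7.26 and 5.64 FPKM with siEZH2_1, against 15.4 and 12.7 FPKM with siNC. Only the siEZH2_1 libraries stood apart, at 45.9% of the siNC mean. STARD4 fell by 1.02 ± 0.13 with siEZH2_1 (limma adjusted p = 0.00293) and its change with siEZH2_2 was 0.06 (95% interval -0.26 to 0.37), a difference between the siRNAs of 1.08 ± 0.13 (0.00361). C12orf49, whose product SPRING1 is needed for SREBP activation, stood at 10.5 and 12.4 FPKM with siEZH2_2 and at 8.62 and 8.48 FPKM with siEZH2_1, against 14.9 and 13.7 FPKM with siNC. The groups did not overlap. C12orf49 fell by 0.68 ± 0.09 with siEZH2_1 (limma adjusted p = 0.003), its change with siEZH2_2 was -0.30 ± 0.09 (0.0541), and the siRNAs differed by 0.38 ± 0.09 (0.0335). That last call ended without siEZH2_1 replicate 1 (adjusted p = 0.108), siEZH2_1 replicate 2 (0.147) or siEZH2_2 replicate 2 (0.131).

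The transcription factor genes themselves were not called in the EZH2 series. SREBF1 gave -0.10 (95% interval -0.24 to 0.05) and SREBF2 by 0.01 (-0.09 to 0.11) with the mean of both siRNAs. SCAP, the SREBP escort, and TMEM97, a membrane protein that binds the lysosomal sterol carrier NPC1, rose by 0.21 ± 0.05 and 0.20 ± 0.05 (limma adjusted p = 0.0255 and 0.0313). Without siNC replicate 1 the adjusted p was 0.183 for SCAP and 0.234 for TMEM97, and 4 libraries for SCAP and 5 for TMEM97 each ended the call when left out.

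**Figure D2:**
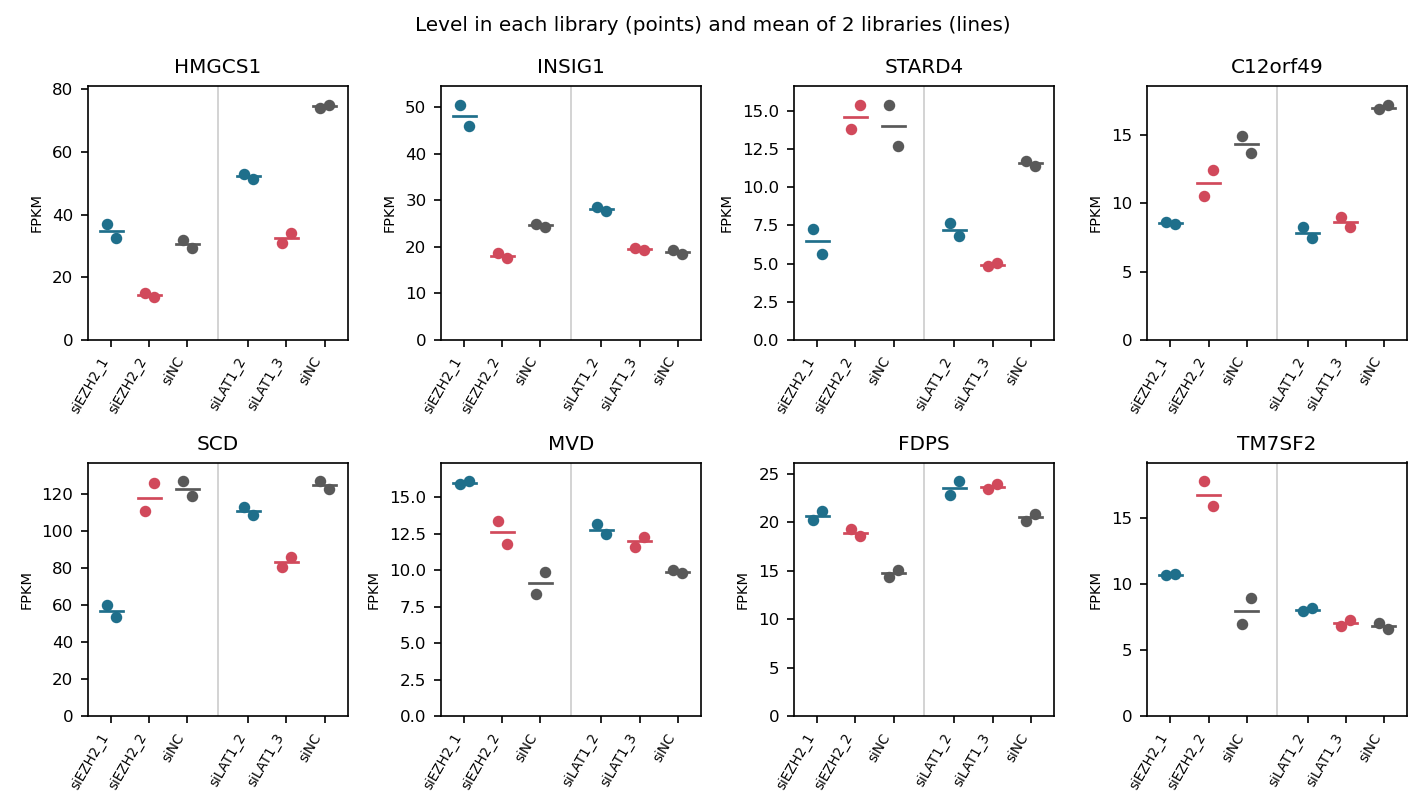
FPKM of 8 genes in every library (points) with the mean of each pair (lines); in each panel the EZH2 series is left of the grey line and the LAT1 series right of it. INSIG1 was highest with siEZH2_1, at 50.5 and 45.9 FPKM, and STARD4 and SCD were low with siEZH2_1 but not with siEZH2_2.

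Of the 5 fatty acid genes, 3 were called lower and 2 not called with the mean of both EZH2 siRNAs, with a median change of -0.32. Over all tested genes 17.0% were called higher and 13.0% lower. With 5 genes, having none called higher is close to the share over all genes. SCD, which puts the double bond into oleate and palmitoleate, stood at 111 and 126 FPKM with siEZH2_2 and at 60.4 and 53.5 FPKM with siEZH2_1, against 127 and 119 FPKM with siNC. The siEZH2_1 libraries were at 46.2% of siNC, and the siEZH2_2 libraries overlapped siNC. SCD fell by 1.10 ± 0.09 with siEZH2_1 (limma adjusted p = 0.000553), its change with siEZH2_2 was -0.06 (95% interval -0.27 to 0.15), and the siRNAs differed by 1.04 ± 0.09 (0.00085).

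ACLY, which makes cytosolic acetyl-CoA from citrate, showed the reverse order. It stood at 68.2 and 71.8 FPKM with siEZH2_2 and at 101 and 101 FPKM with siEZH2_1, against 106 and 104 FPKM with siNC. ACLY fell by 0.58 ± 0.05 with siEZH2_2 (limma adjusted p = 0.000682), its change with siEZH2_1 was -0.06 (95% interval -0.18 to 0.06), and the siRNAs differed by -0.52 ± 0.05 (0.00142). ELOVL6, which lengthens palmitate, stood at 9.45 and 9.60 FPKM with siEZH2_2 and at 14.0 and 13.0 FPKM with siEZH2_1, against 15.3 and 13.8 FPKM with siNC. Its siEZH2_2 libraries stood below all others, while the siEZH2_1 libraries overlapped siNC. ELOVL6 fell by 0.57 ± 0.07 with siEZH2_2 (limma adjusted p = 0.00266), and the siRNAs differed by -0.46 ± 0.07 (0.00817), a call that ended without siEZH2_1 replicate 1 (0.0526). FASN, the fatty acid synthase, fell by 0.25 ± 0.07 with siEZH2_1 (limma adjusted p = 0.0339), a call lost without either siEZH2_1 library or siNC replicate 2 (0.139, 0.0951 and 0.142). ACACA, which makes malonyl-CoA, was not called with either siRNA, and its mean change was -0.10 (95% interval -0.26 to 0.06).

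Between the 2 EZH2 siRNAs 8 of 28 genes were called, 4 higher and 4 lower with siEZH2_2 than with siEZH2_1, where 16.3% of all tested genes were called (7.40% higher and 8.86% lower). They were HMGCS1, INSIG1, ACLY and ELOVL6 (lower with siEZH2_2) and STARD4, SCD, C12orf49 and TM7SF2 (higher with siEZH2_2). TM7SF2 differed by 0.60 ± 0.11 (limma adjusted p = 0.0151), a call that ended without siEZH2_1 replicate 1 (0.0646), siEZH2_1 replicate 2 (0.0734) or siEZH2_2 replicate 1 (0.06). Without siEZH2_1 replicate 1 the count was 5, and that over all genes 859 in place of 1883. EZH2 itself differed between the siRNAs by -0.14 (95% interval -0.30 to 0.02), while SLC7A5 differed by 1.65 ± 0.06 (limma adjusted p = 8.66e-05), and the part of SLC7A5 in these differences was not tested.

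**Figure D3:**
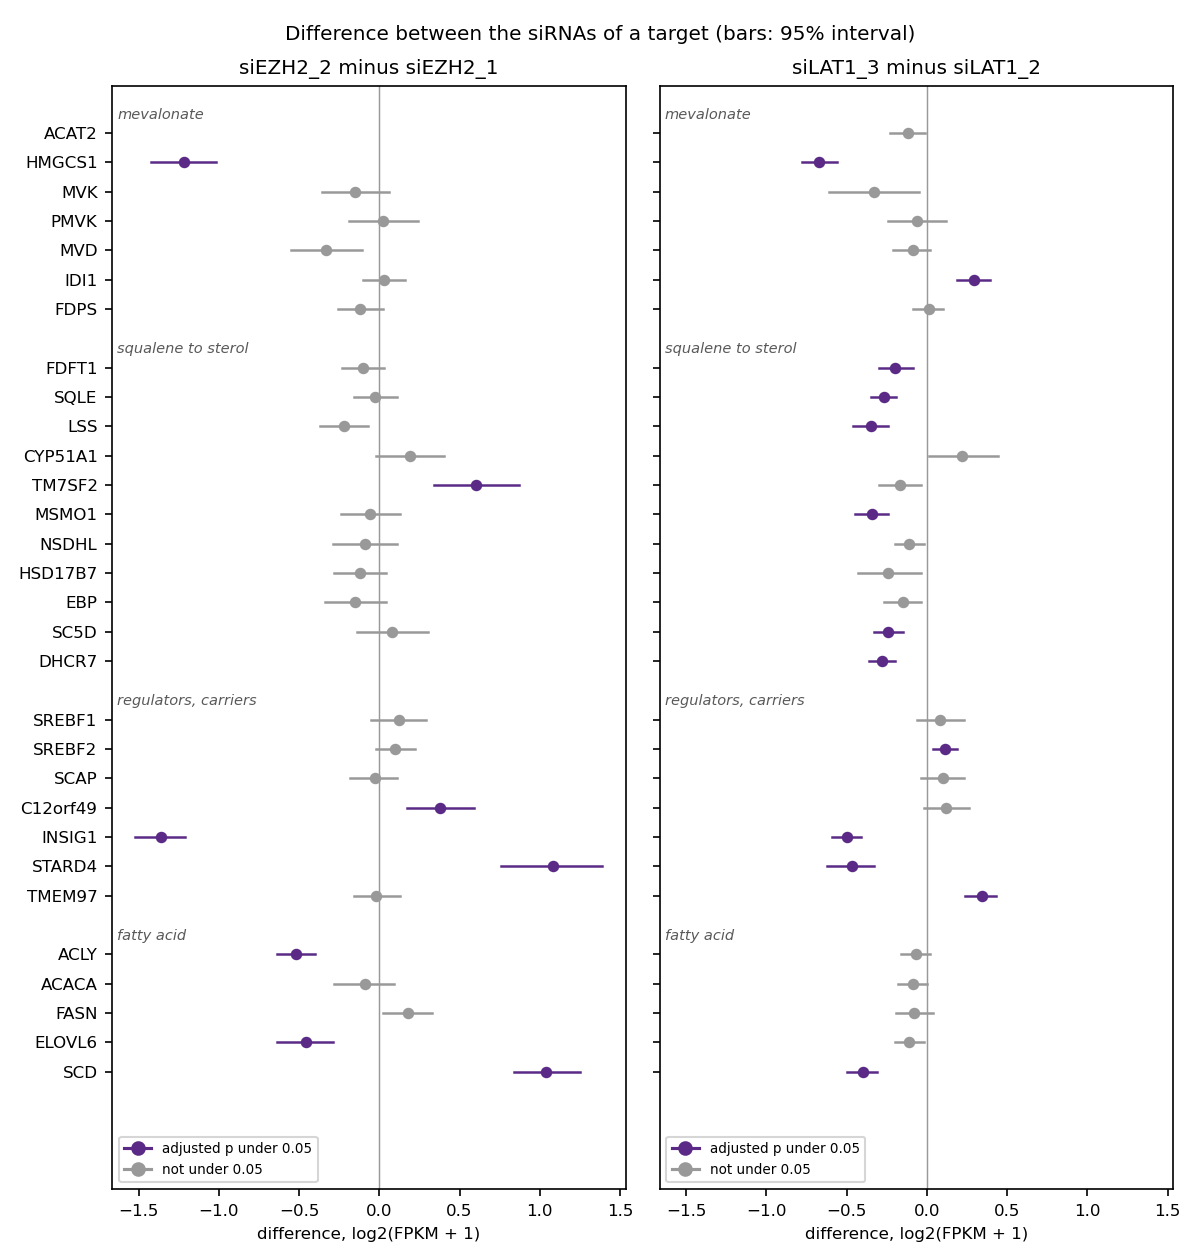
Difference in log2(FPKM + 1) between the siRNAs of a target, siEZH2_2 minus siEZH2_1 at left and siLAT1_3 minus siLAT1_2 at right, with 95% intervals; purple marks an adjusted p under 0.05. INSIG1 lies lowest at left, at -1.36, and HMGCS1 lowest at right, at -0.67.

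Counts in the EZH2 series were lower without siNC replicate 1. Without it 6 genes in place of 15 were called with the mean, 7 in place of 12 with siEZH2_1 and 5 in place of 8 with siEZH2_2. The calls over all 11585 genes fell as well, to 1360 in place of 3481 with the mean, 1266 in place of 3156 with siEZH2_1 and 1445 in place of 2874 with siEZH2_2. Without siEZH2_2 replicate 1 the mean gave 9 genes of the list (2561 over all genes). The siEZH2_1 count was 6 without siEZH2_1 replicate 1 (1875 over all genes) and 6 without siEZH2_1 replicate 2 (1201 over all genes). Without siNC replicate 1 the mean call also ended for HMGCS1 (limma adjusted p = 0.0539), STARD4 (0.152), INSIG1 (0.0809) and ELOVL6 (0.0825). It ended for INSIG1 without siNC replicate 2 (0.0879) and for STARD4 without siEZH2_2 replicate 1 (0.0521). MVD and FDPS were the genes whose mean call held under every alternative run.

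With LAT1 knockdown, more genes were lower than higher, and several were lower with both siRNAs. Averaged over both siRNAs 17 of 30 genes were called, 5 higher and 12 lower, where 34.5% of all tested genes were called (19.3% higher and 15.3% lower). The median change of the 30 genes was -0.06, beside 0.01 over all genes tested. With siLAT1_2 16 were called, 7 higher and 9 lower, against a background of 32.5% (18.6% higher and 13.9% lower), and with siLAT1_3 19 were called, 4 higher and 15 lower, against a background of 31.4% (17.9% higher and 13.6% lower). Lower with both siRNAs were 8 genes (background 5.31%), higher with both were 3 (background 11.2%), and none went in opposite directions (background 1.46%). With 30 genes, the counts higher with both and in opposite directions are close to their backgrounds.

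HMGCS1 was lower with both LAT1 siRNAs. It stood at 53.0 and 51.5 FPKM with siLAT1_2 and 31.0 and 34.1 FPKM with siLAT1_3, against 74.1 and 75.1 FPKM with siNC. The groups did not overlap, and the siLAT1_3 mean was 43.6% of siNC. HMGCS1 fell by 0.51 ± 0.05 with siLAT1_2 and by 1.17 ± 0.05 with siLAT1_3 (limma adjusted p = 0.000373 and 1.7e-05).

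IDI1 stood at 18.7 and 17.6 FPKM with siLAT1_2 and 22.9 and 21.8 FPKM with siLAT1_3, against 26.7 and 26.7 FPKM with siNC. Here siLAT1_2 was the lower of the 2 siRNAs, the opposite of HMGCS1. IDI1 fell by 0.54 ± 0.04 and 0.24 ± 0.04 (limma adjusted p = 0.000187 and 0.00583). MSMO1, which starts removal of the C4 methyl groups, stood at 37.1 and 36.1 FPKM with siLAT1_2 and 29.4 and 28.0 FPKM with siLAT1_3, against 43.9 and 41.1 FPKM with siNC. All knockdown libraries lay below siNC, with siLAT1_3 the lowest. MSMO1 fell by 0.21 ± 0.04 and 0.55 ± 0.04 (limma adjusted p = 0.0115 and 0.000222), and its siLAT1_2 call ended without siLAT1_2 replicate 2 (0.06) or siNC replicate 1 (0.0704).

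The 3 genes higher with both LAT1 siRNAs were mevalonate enzymes. PMVK stood at 10.6 and 12.4 FPKM with siLAT1_2 and 11.5 and 10.6 FPKM with siLAT1_3, against 7.79 and 7.83 FPKM with siNC. It rose by 0.50 ± 0.08 and 0.45 ± 0.08 (limma adjusted p = 0.00291 and 0.00504), with all 4 knockdown libraries above siNC. MVD stood at 13.2 and 12.5 FPKM with siLAT1_2 and 11.6 and 12.3 FPKM with siLAT1_3, against 10.0 and 9.79 FPKM with siNC. MVD rose by 0.35 ± 0.05 and 0.25 ± 0.05 (limma adjusted p = 0.00219 and 0.00823), again without overlap, though its siLAT1_3 call ended without siNC replicate 2 (0.0541). FDPS stood at 22.8 and 24.2 FPKM with siLAT1_2 and 23.4 and 23.9 FPKM with siLAT1_3, against 20.1 and 20.8 FPKM with siNC. It rose by 0.19 ± 0.04 and 0.20 ± 0.04 (limma adjusted p = 0.0124 and 0.0115), the smallest of the 3. Without siNC replicate 1 neither FDPS call held (0.0784 and 0.0756), nor did the siLAT1_2 call without siLAT1_2 replicate 2 (0.0635) or the siLAT1_3 call without siLAT1_3 replicate 2 (0.0584).

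The 11 enzymes from squalene to sterol gave a split between the LAT1 siRNAs. With siLAT1_2 2 were higher, 1 lower and 8 not called, with a median change of 0.04. Over all tested genes 18.6% were higher and 13.9% lower with siLAT1_2. With siLAT1_3 none was higher, 7 were lower and 4 not called, with a median change of -0.20. Over all tested genes 17.9% were higher and 13.6% lower with siLAT1_3. DHCR7, which makes cholesterol in the last step, was the most abundant gene of the list at 388 and 405 FPKM with siLAT1_3 and 489 and 473 FPKM with siLAT1_2, against 451 and 463 FPKM with siNC. It fell by 0.20 ± 0.03 with siLAT1_3 (limma adjusted p = 0.00457), and its change with siLAT1_2 was 0.08 ± 0.03 (0.131). SQLE, squalene epoxidase, stood at 69.5 and 72.8 FPKM with siLAT1_3 and 87.2 and 84.6 FPKM with siLAT1_2, against 82.5 and 81.8 FPKM with siNC. It fell by 0.21 ± 0.03 with siLAT1_3 (limma adjusted p = 0.00406) and its change with siLAT1_2 was 0.06 ± 0.03 (0.179). SC5D, a sterol desaturase near the end of the route, stood at 9.83 and 9.88 FPKM with siLAT1_3 and 11.7 and 11.9 FPKM with siLAT1_2, against 12.1 and 12.1 FPKM with siNC. The siLAT1_3 libraries lay below all others in each of these 3 genes, and SC5D fell by 0.27 ± 0.04 with siLAT1_3 (limma adjusted p = 0.00238).

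LSS stood at 8.87 and 8.81 FPKM with siLAT1_3 and 11.9 and 11.2 FPKM with siLAT1_2, against 9.89 and 9.61 FPKM with siNC. The siNC libraries lay between the 2 knockdown groups. LSS rose by 0.22 ± 0.04 with siLAT1_2 (limma adjusted p = 0.00948), its change with siLAT1_3 was -0.13 ± 0.04 (0.0715), and the rise was lost without siLAT1_2 replicate 1 (0.0543) or siNC replicate 2 (0.0625). FDFT1 stood at 56.7 and 61.5 FPKM with siLAT1_3 and 69.4 and 66.3 FPKM with siLAT1_2, against 66.4 and 65.7 FPKM with siNC. Its fall of 0.16 ± 0.04 with siLAT1_3 (limma adjusted p = 0.0339) was lost without siLAT1_3 replicate 1 (0.131) or either siNC library (0.143 and 0.114). NSDHL and HSD17B7, which work on the same demethylation steps as MSMO1, were lower with siLAT1_3 by 0.21 and 0.30 (limma adjusted p = 0.00689 and 0.0339). Leaving out siNC replicate 1 ended both calls (0.0522 and 0.0809), and siNC replicate 2 or siLAT1_3 replicate 2 that of HSD17B7 (0.165 and 0.15). CYP51A1, the lanosterol demethylase, and EBP, the sterol isomerase, were not called with either siRNA, and CYP51A1 was the lowest member at 1.26 to 1.82 FPKM over the 6 libraries.

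Of the 7 regulators and carriers 1 was called higher and 4 lower with the mean of the LAT1 siRNAs, with a median change of -0.14. Over all tested genes 19.3% were called higher and 15.3% lower. C12orf49 stood at 8.23 and 7.46 FPKM with siLAT1_2 and 8.97 and 8.23 FPKM with siLAT1_3, against 16.9 and 17.2 FPKM with siNC. The siRNA means were 46.1% and 50.5% of siNC, and no knockdown library overlapped siNC. C12orf49 fell by 1.03 ± 0.06 and 0.91 ± 0.06 (limma adjusted p = 5.73e-05 and 9.58e-05). STARD4 stood at 7.64 and 6.83 FPKM with siLAT1_2 and 4.83 and 5.02 FPKM with siLAT1_3, against 11.7 and 11.4 FPKM with siNC. It fell by 0.61 ± 0.06 and 1.08 ± 0.06 (limma adjusted p = 0.000511 and 4.7e-05), and all 3 groups were apart. SREBF2, the sterol-directed SREBP gene, stood at 24.9 and 24.3 FPKM with siLAT1_2 and 26.2 and 27.1 FPKM with siLAT1_3, against 29.6 and 29.4 FPKM with siNC. It fell by 0.25 ± 0.03 and 0.14 ± 0.03 (limma adjusted p = 0.00161 and 0.0187), and the siLAT1_3 call was lost without siLAT1_3 replicate 1 (0.086) or either siNC library (0.0929 and 0.0787).

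INSIG1 and TMEM97 responded to siLAT1_2 and not detectably to siLAT1_3. INSIG1 stood at 19.7 and 19.4 FPKM with siLAT1_3 and 28.5 and 27.7 FPKM with siLAT1_2, against 19.3 and 18.5 FPKM with siNC. It rose by 0.54 ± 0.04 with siLAT1_2 (limma adjusted p = 0.000102), its change with siLAT1_3 was 0.04 (95% interval -0.04 to 0.13), and the siRNAs differed by -0.50 ± 0.04 (0.000192). TMEM97 stood at 28.9 and 27.3 FPKM with siLAT1_3 and 21.6 and 22.5 FPKM with siLAT1_2, against 27.2 and 27.8 FPKM with siNC. It fell by 0.30 ± 0.04 with siLAT1_2 (limma adjusted p = 0.00187), and the siRNAs differed by 0.34 ± 0.04 (0.0016). SREBF1 was not called, with a change of -0.02 for the mean of both siRNAs (95% interval -0.15 to 0.10). SCAP rose by 0.19 ± 0.06 with siLAT1_3 (limma adjusted p = 0.047), a call lost on leaving out any of 4 libraries, with adjusted p-values up to 0.198.

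Fatty acid genes were mostly lower in the LAT1 series. With the mean of both siRNAs 3 of 5 were lower, 1 higher and 1 not called, with a median change of -0.12. Over all tested genes 19.3% were called higher and 15.3% lower. SCD stood at 113 and 109 FPKM with siLAT1_2 and 80.9 and 86.3 FPKM with siLAT1_3, against 127 and 123 FPKM with siNC. Its 3 groups were apart, and it fell by 0.17 ± 0.04 and 0.57 ± 0.04 (limma adjusted p = 0.0167 and 0.000116). ELOVL6 stood at 16.9 and 17.3 FPKM with siLAT1_2 and 15.5 and 16.1 FPKM with siLAT1_3, against 18.7 and 19.4 FPKM with siNC. It fell by 0.15 ± 0.04 and 0.25 ± 0.04 (limma adjusted p = 0.0288 and 0.00347), again with the groups apart. The siLAT1_2 call of SCD ended without siLAT1_2 replicate 2 (0.0826) or either siNC library (0.102 and 0.0536), and that of ELOVL6 without any of the 4 libraries compared (up to 0.146). ACLY fell by 0.12 ± 0.03 and ACACA rose by 0.13 ± 0.03 with the mean (limma adjusted p = 0.0319 and 0.0216), and leaving out any of 4 libraries for ACLY (up to 0.218) or 3 for ACACA (up to 0.158) ended these calls. FASN was not called, at -0.04 with the mean (95% interval -0.14 to 0.06).

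Between the 2 LAT1 siRNAs 13 of 30 genes were called, 3 higher and 10 lower with siLAT1_3 than with siLAT1_2, where 25.5% of all tested genes were called (12.4% higher and 13.1% lower). Of the 11 enzymes from squalene to sterol 6 were lower with siLAT1_3, namely FDFT1, SQLE, LSS, MSMO1, SC5D and DHCR7, by 0.20 to 0.35 on the log2 scale. HMGCS1 differed by -0.67 ± 0.05 (limma adjusted p = 0.000156), STARD4 by -0.47 ± 0.06 (0.0019) and SCD by -0.40 ± 0.04 (0.000629). IDI1 differed the other way, by 0.29 ± 0.04 (0.00346). The call of FDFT1 ended without siLAT1_2 replicate 1 (0.0907) or siLAT1_3 replicate 1 (0.0678), and SREBF2, which differed by 0.11 ± 0.03 (0.0451), lost its call on leaving out any of the 6 libraries, with adjusted p-values up to 0.173.

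Across the 2 series, 28 genes were tested in both tables. FDPS and MVD were higher with all 4 siRNAs, where 5.39% of the 10804 genes tested in both tables were. None of the 28 was lower with all 4, where 1.34% were. With 28 genes, both counts are close to these shares. STARD4, C12orf49 and SCD were each lower with siEZH2_1 and with both LAT1 siRNAs, and HMGCS1 and ELOVL6 with siEZH2_2 and both LAT1 siRNAs. INSIG1 and LSS were each higher with siEZH2_1 and siLAT1_2, and TM7SF2 with these and siEZH2_2. The siLAT1_2 rise of TM7SF2 was small, at 0.21 (limma adjusted p = 0.0257). Its call was lost on leaving out any of the 4 libraries compared. TMEM97 went in opposite directions, by 0.21 with siEZH2_1 and by -0.30 with siLAT1_2, though its siEZH2_1 call was lost without any of the 6 libraries. INSIG1 did so with siEZH2_2 (-0.42) and siLAT1_2 (0.54). The share of all genes with each of these patterns, alike or opposite, was not counted. Of the 2 EZH2 siRNAs, siEZH2_1 was the one with SLC7A5 at 184 and 193 FPKM, and whether SLC7A5 has a part in these changes was not tested.

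Sterol and fatty acid enzymes were set against each other by their mean change on the log2 scale in each library, as a description with no test. In the EZH2 series the mean change of 16 sterol synthesis enzymes exceeded that of the 5 fatty acid genes by 0.45 and 0.49 in the siEZH2_1 libraries and by 0.42 and 0.26 in the siEZH2_2 libraries, against -0.05 and 0.05 in the siNC libraries. All 4 knockdown libraries lay above siNC. With siEZH2_1 the fatty acid mean of -0.31 rested on SCD, since the median of the 5 genes was -0.10. With siEZH2_2 the mean was -0.29 and the median -0.15, with ACLY and ELOVL6 falling most. In the LAT1 series the 18 sterol enzymes exceeded the fatty acid genes by 0.07 and 0.09 with siLAT1_2 and by 0.07 and 0.04 with siLAT1_3, against 0.03 and -0.03 with siNC. All 4 knockdown libraries lay above both siNC libraries here too, by little: the lowest, at 0.04, was close to the higher siNC library at 0.03.

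**Figure D4:**
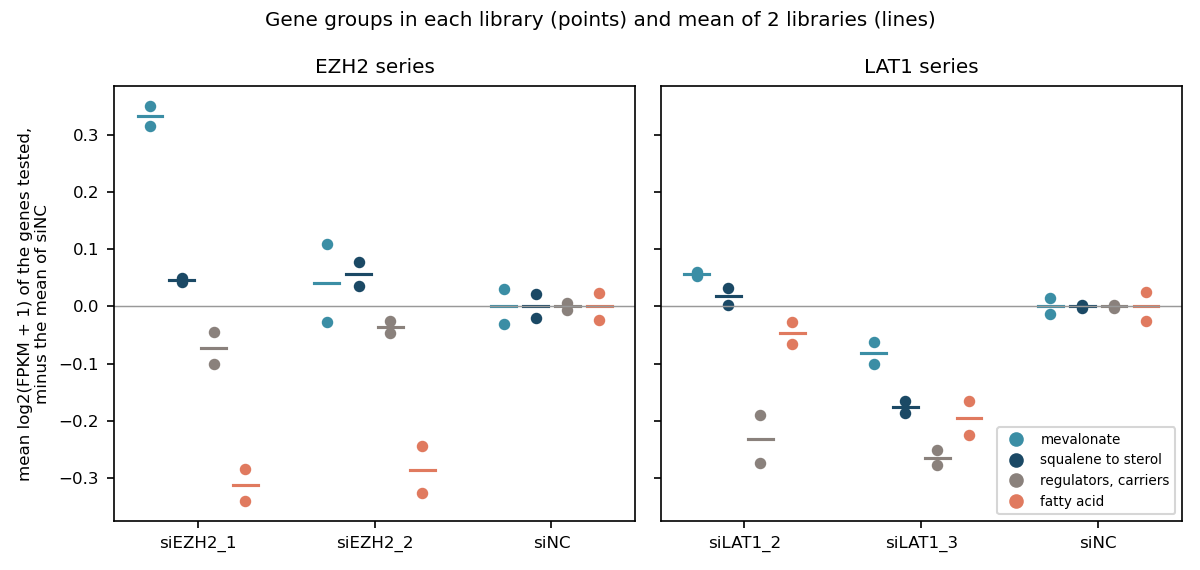
Mean log2(FPKM + 1) of the tested genes of each role group, minus the mean of the siNC libraries, for every library (points) and as the mean of each pair (lines). The mean of the fatty acid genes lies lowest with both EZH2 siRNAs, at -0.25 to -0.34, but rests on different genes. SCD and FASN were called lower with siEZH2_1, and ACLY and ELOVL6 with siEZH2_2. Regulators and carriers lie lowest with both LAT1 siRNAs, at -0.19 to -0.28. The median change of the regulators and carriers was -0.25 with siLAT1_2 but 0.02 with siLAT1_3, where the mean rested on C12orf49 and STARD4.

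Outside the list, 39 other lipid genes (uptake, oxysterol sensing, desaturation, protein turnover in the endoplasmic reticulum) were counted. With the mean of the EZH2 siRNAs 8 of 35 tested were higher and 6 lower, a called share of 40.0% beside 30.0% of all genes tested, and with the mean of the LAT1 siRNAs 4 of 36 were higher and 12 lower, a called share of 44.4% beside 34.5% of all genes tested.

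ERLIN1, part of a protein complex of the endoplasmic reticulum membrane, and ME1, the cytosolic malic enzyme that supplies NADPH for lipid synthesis, were higher with all 4 siRNAs. ERLIN1 rose by 0.69 and 0.64 with siEZH2_1 and siEZH2_2 and by 0.70 and 0.78 with siLAT1_2 and siLAT1_3 (limma adjusted p up to 0.00111). ME1 rose by 0.68 and 0.89 with the EZH2 siRNAs and by 0.59 and 0.71 with the LAT1 siRNAs (limma adjusted p up to 0.000872). NR1H2, an oxysterol receptor, rose by 0.54 and 0.51 with the EZH2 siRNAs (limma adjusted p = 0.00474 and 0.00559). RNF139, a ubiquitin ligase of the endoplasmic reticulum, fell by 0.66 and 0.44 with them (0.00183 and 0.00783). FADS1 and FADS2, the fatty acid desaturases of the polyunsaturated route, were not called with the mean of either pair of siRNAs.

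The siNC levels of some genes differed between the tables, which were made separately, so they are set side by side without a test. DHCR7 was listed at 0.04 and 0.00 FPKM in siNC of the EZH2 table and at 451 and 463 FPKM in siNC of the LAT1 table. ACAT2, which joins acetyl-CoA units at the start of the mevalonate route, was listed at 0.08 and 0.06 FPKM in siNC of the EZH2 table and at 17.6 and 19.0 FPKM in siNC of the LAT1 table. These 2 genes were near 0 in all 6 libraries of the EZH2 table, and no change was drawn from them there. Among all genes 51 stood at 10 FPKM or more in siNC of the LAT1 table and under 0.1 FPKM in siNC of the EZH2 table, and 0 the other way round. Of the 28 genes tested in both, 6 were at least 1.5-fold lower and 3 at least 1.5-fold higher in siNC of the EZH2 table. SQLE had a mean of 20.7 FPKM in the EZH2 table and 82.1 FPKM in the LAT1 table, and HMGCS1 had 30.8 FPKM in the EZH2 table and 74.6 FPKM in the LAT1 table.

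**Figure D5:**
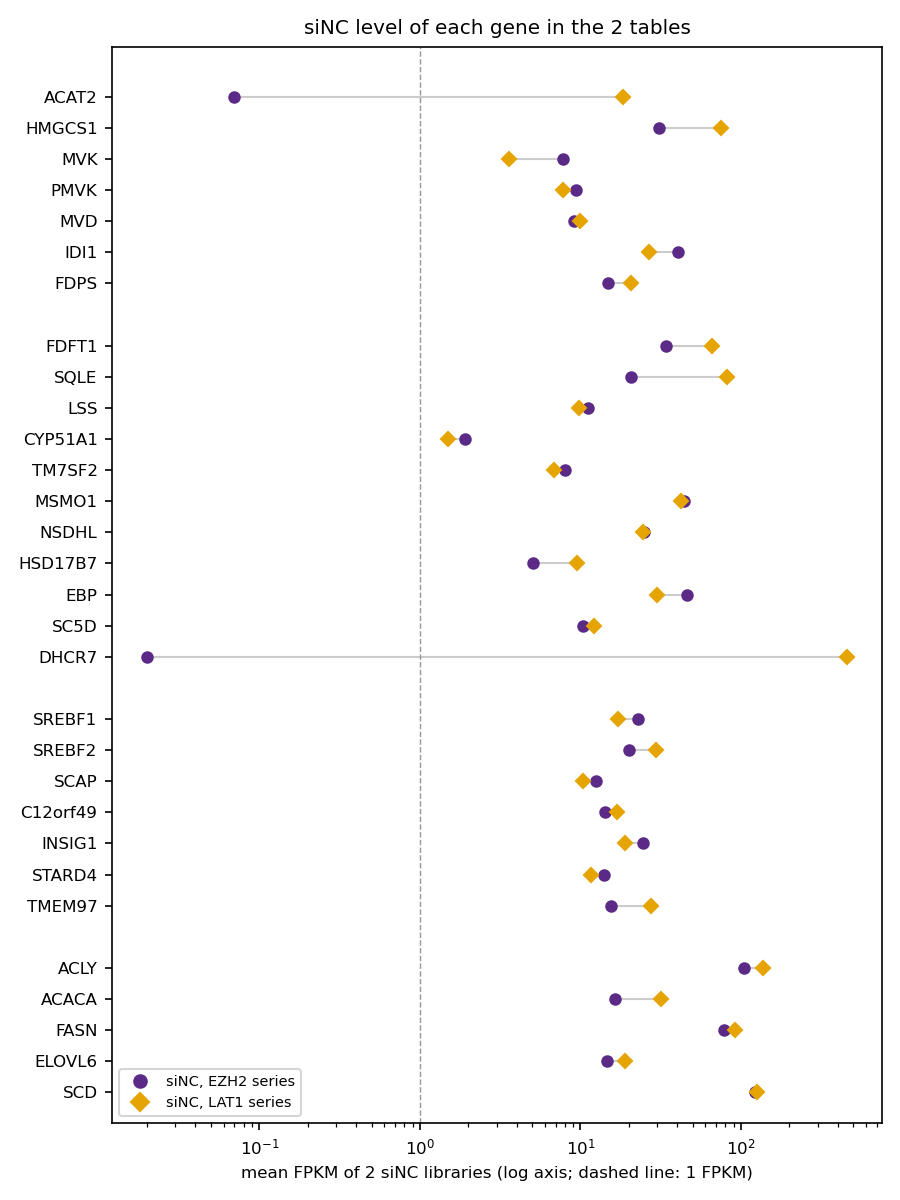
Mean FPKM of the 2 siNC libraries for each gene in the EZH2 table (circles) and in the LAT1 table (diamonds), on a log axis with a dashed line at 1 FPKM. ACAT2 and DHCR7 lie below 0.1 FPKM in the EZH2 table, and DHCR7 is the most abundant gene in the LAT1 table at 457 FPKM.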

How the data were processed

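RNA of KYSE510 cells was profiled in 12 libraries, in 2 tables of 6 libraries each; 2 CUT&Tag samples were not analysed here. The deposited values have 2 decimals and were read as FPKM, a unit taken from the values and not stated by the authors. Counting program, gene lengths and strand are not given in the sources used here; the submitters' processing notes list Bowtie, STAR, Bowtie2, Trim Galore, Picard, SEACR, hg19 and hg38 with no roles. Libraries were grouped by their titles and descriptions. Where a symbol had more than 1 identifier, the one with the highest mean was used. Each table was fitted alone with limma 3.58.1 (trend, R 4.3.3) on log2(FPKM + 1) where a gene averaged 1 FPKM or more, with each siRNA a group of its own, 2-sided tests, 95% intervals and Benjamini-Hochberg adjustment over all genes tested. An exact permutation test could not give a p under 0.0667 (4 against 2 libraries) or 0.333 (2 against 2). On simulated data made from these tables, the fit called 26%, 68% and 86% of genes raised by 0.3, 0.5 and 1.0 on the log2 scale for EZH2, and 42%, 78% and 96% for LAT1 (mean contrast, 50 changed genes per step). Few genes were changed in the simulation and its noise was drawn independently. In the data 30.0% (EZH2) and 34.5% (LAT1) of tested genes were called with the mean. The simulated rates therefore do not give the power of the comparisons made here. Genes outside the list were named by role or where both siRNAs of a target called them. Motif and figure steps used Python 3.11.15, pandas 2.3.3, numpy 2.4.6 and matplotlib 3.10.9. The alternatives tried were no trend, a filter of 5 FPKM or none, a pseudocount of 0.1, quantile normalization, a replicate block, pooled siRNAs and each library left out. The genes and lists were chosen with earlier results of these data known. Some results on other lipid genes are not reported here.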

Additional observations from a re-analysis of the deposited data

Results flagged for a closer look

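The responses to the 2 siRNAs of a target differed, by the limma test of the difference itself, for the following genes. For siEZH2_2 against siEZH2_1, HMGCS1 (-1.22), INSIG1 (-1.36), ACLY (-0.52) and ELOVL6 (-0.46) were lower and STARD4 (1.08), SCD (1.04), TM7SF2 (0.60) and C12orf49 (0.38) were higher on the log2 scale. SLC7A5 differed between the same siRNAs by 1.65, while EZH2 differed by -0.14 (limma adjusted p = 8.66e-05 and 0.223). For siLAT1_3 against siLAT1_2, HMGCS1 (-0.67), INSIG1 (-0.50), STARD4 (-0.47), SCD (-0.40), LSS (-0.35), MSMO1 (-0.34), DHCR7 (-0.28), SQLE (-0.27), SC5D (-0.24) and FDFT1 (-0.20) were lower. TMEM97 (0.34), IDI1 (0.29) and SREBF2 (0.11) were higher, and SLC7A5 differed by 0.36 (limma adjusted p = 0.000803).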

How the results depend on the processing

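No gene of the list that was called with a mean contrast changed direction under any alternative run. The count of 15 called with the EZH2 mean became 8 without a filter, where 29763 genes were fitted and adjusted together. It became 2 with both siRNAs pooled as 1 group, and it was lower with any library left out. The siEZH2_1 count of 12 became 6 without a filter, 6 with a replicate block and 6 to 12 with a library left out. The siEZH2_2 count of 8 became 5 to 9 and that of the difference between the EZH2 siRNAs also 5 to 9 with a library left out. The LAT1 mean count of 17 became 5 with pooled siRNAs and 13 to 17 with a library left out. The other LAT1 counts were 11 to 16 (siLAT1_2), 13 to 19 (siLAT1_3) and 11 to 13 (difference) with a library left out. The sterol minus fatty acid difference became 0.50 for siEZH2_1 and 0.03 for siLAT1_3 with a filter of 5 FPKM. It spanned 0.42 to 0.51 (siEZH2_1), 0.26 to 0.42 (siEZH2_2), 0.05 to 0.11 (siLAT1_2) and 0.02 to 0.09 (siLAT1_3) with a library left out. Over all genes the EZH2 mean gave 3481 calls (56.7% higher), 1820 without a filter and 1153 with pooled siRNAs (71.7% higher), and the LAT1 mean 4032 (55.8% higher), 2739 without a filter and 1309 with pooled siRNAs (75.6% higher). For siEZH2_1 the 3156 calls over all genes became 2007 with the replicate block and 1604 without a filter. Replicate numbers did not pair the samples in a common order. In the EZH2 series, deviations of same-numbered libraries correlated at -0.35 (siEZH2_1 with siEZH2_2), 0.36 (siEZH2_1 with siNC) and -0.34 (siEZH2_2 with siNC). The replicates of that series thus shared variation, in reversed order in siEZH2_2. The main fit did not model it, and a block by replicate number does not follow that order. In the LAT1 series the correlations were 0.02, 0.03 and 0.08. The block left 10 genes called with the EZH2 mean and 17 with the LAT1 mean. The cause of the lower counts was not tested, and at 2 libraries a group small changes have wide intervals.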

Other observations

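Among the other lipid genes of the LAT1 series, ERLIN2, the partner of ERLIN1, rose by 0.47 ± 0.06 with siLAT1_2 and 0.61 ± 0.06 with siLAT1_3 (limma adjusted p = 0.00166 and 0.000617). RNF139 fell by 0.83 ± 0.06 with siLAT1_2 (limma adjusted p = 0.00015), while its change with siLAT1_3 was -0.03 (95% interval -0.17 to 0.12). NR1H2 rose by 0.24 ± 0.04 with siLAT1_2 and fell by 0.17 ± 0.04 with siLAT1_3 (limma adjusted p = 0.00602 and 0.0243). The fall of NR1H2 lost its call without either siLAT1_3 library (0.0858 and 0.08) or either siNC library (0.0752 and 0.121).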
